A study of Homo sapiens with 3 samples.

Results

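NF-kB is a family of transcription factors whose subunits and principal feedback genes were followed here in T24 cells, a human bladder carcinoma line. The 10 genes were chosen by name: the 5 subunits NFKB1, NFKB2, RELA, RELB and REL, the 2 inhibitors NFKBIA and NFKBIE, and the 3 feedback genes TNFAIP3, BIRC3 and TRAF1. They are 10 of the 58381 genes in the table of read counts and all 10 had at least 10 counts in every library. The rule that chose them uses names and no measured value, although it was set with earlier results of these data known. RNA was sequenced from untreated cells (Ctrl), from cells given ionising radiation (RT), and from irradiated cells carrying an shRNA, a short hairpin RNA that lowers its target, against the deacetylase HDAC6 (RT + shHDAC6). The labels give 10 Gy of caesium gamma rays for the irradiated cells and describe lentiviral infection and puromycin selection, with an empty vector as control, while the study's text also calls the comparison cells parental. The time between irradiation and harvest was not given in the sources used here, and no library of unirradiated cells with the shRNA was analysed here. There was 1 library per condition, so no difference below has a replicate check, no p-value is given, and the 95% intervals cover counting error only.

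In resting cells NF-kB dimers are held in the cytoplasm by IkB proteins such as the products of NFKBIA and NFKBIE. Receptors for cytokines, and double-strand breaks signalled from the nucleus, activate the IKK kinase complex, which marks IkB for destruction and frees dimers of RELA, REL and p50, the processed product of NFKB1. In the non-canonical branch the kinase NIK drives processing of the NFKB2 product to p52, which pairs with RELB. Many of these genes are themselves NF-kB targets: newly made IkB and the ubiquitin-editing enzyme A20 (TNFAIP3) close the circuit, and cIAP2 (BIRC3) and TRAF1 act at the receptors. Acetylation and phosphorylation of the subunits are not seen by RNA sequencing, and neither is their movement into the nucleus.

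The NF-kB consensus motif was sought in the windows from 250 bases before to 50 bases after annotated transcript starts, taken from RefSeq (GRCh38.p14), on both strands and with overlapping matches merged. Windows were found for 8 of the 10 genes, and not for RELB and NFKBIE, and 6 of the 8 held a match. Over all windows the motif was found in 3956 of 35116 (11.3%), and over all gene symbols in 3619 of 27305 (13.3%). The runs are shown because several of these genes are known NF-kB targets, and each is 30 bases on the strand of the gene, 5′ to 3′, with the match in capitals. The first base of the match lay 49 bases before the start for NFKB1 (chr4:102501300-102501329), 107 and 78 bases before one start of NFKB2 (chr10:102394461-102394490 and chr10:102394490-102394519), 176 and 21 bases before another (chr10:102395519-102395548 and chr10:102395674-102395703), and 47 bases before the start of REL (chr2:60881517-60881546). It lay 81 bases before the start for NFKBIA (chr14:35404811-35404840, minus strand), 67 and 55 for TNFAIP3 (chr6:137867188-137867217), and 199 and 135 for BIRC3 (chr11:102317275-102317304 and chr11:102317339-102317368).
NFKB1: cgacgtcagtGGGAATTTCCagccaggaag
NFKB2, run 1: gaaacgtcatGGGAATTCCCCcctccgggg
NFKB2, run 2: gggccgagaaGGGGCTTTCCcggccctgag
NFKB2, run 3: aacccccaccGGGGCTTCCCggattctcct
NFKB2, run 4: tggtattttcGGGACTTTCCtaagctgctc
REL: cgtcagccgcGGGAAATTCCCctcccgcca
NFKBIA: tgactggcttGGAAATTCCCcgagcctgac
TNFAIP3: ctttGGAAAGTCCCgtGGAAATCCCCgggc
BIRC3, run 1: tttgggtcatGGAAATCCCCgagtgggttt
BIRC3, run 2: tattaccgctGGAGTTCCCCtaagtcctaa
In the 2 windows of RELA and the 3 of TRAF1 these letters did not occur, which says only that they are not in those windows. A match is a description of the sequence, and binding was not measured here.

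The libraries held 41811165 counts in Ctrl, 35959265 under RT and 35424086 under RT + shHDAC6, and 3 counts, the limit that a count of 0 allows, correspond to between 0.0662 and 0.0894 on the CPM scale explained next. HDAC6, the target of the shRNA, had 3098, 2383 and 2170 counts, and RT + shHDAC6 cells retained 87.2% of the RT level (log2 ratio -0.20, interval -0.28 to -0.11). Mitochondrially encoded RNA took 3.75% of the counts in Ctrl, 6.09% under RT and 5.51% under RT + shHDAC6. Epithelial keratins were present at 441 to 9048 counts, and the 5 leukocyte markers had between 1 and 120. The uroplakins UPK1B, UPK2 and UPK3A, which mark differentiated urothelium, had at most 3 counts, whereas the urothelial regulators GATA3 and PPARG had 352 to 2320. The endothelial markers PECAM1 and CDH5 had 68 to 489 counts, and the fibroblast markers COL1A1 and PDGFRB had 176 to 4706. Levels are given as CPM, a gene's share of the library's counts scaled to a common total, after scaling by the trimmed mean of M values (TMM), which sets the bulk of genes equal between libraries. Compared with scaling by total counts, TMM added 0.22 to every log2 ratio of RT against Ctrl, 0.13 to those of RT + shHDAC6 against Ctrl and -0.084 to those of RT + shHDAC6 against RT.

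The 10 genes together took 341 CPM in Ctrl, 400.2 CPM under RT and 428 CPM under RT + shHDAC6. Per kilobase of the canonical transcript, the only scale on which levels of different genes can be set side by side, the order in Ctrl ran from NFKB2 (33.1 CPM per kb) and RELA (31.6) through NFKBIA (23.6), NFKB1 (13.0), BIRC3 (4.26), NFKBIE (3.21), RELB (2.83), REL (1.62) and TNFAIP3 (1.37) to TRAF1 (1.04). The counting intervals of NFKB2 and RELA, of NFKBIE and RELB, and of REL and TNFAIP3 overlapped in Ctrl, so these neighbours were not separated. In RT + shHDAC6 the order was NFKB2 (40.6 CPM per kb), NFKBIA (31.8), RELA (31.2), NFKB1 (16.6), BIRC3 (7.37), RELB (5.63), NFKBIE (4.98), TRAF1 (2.62), TNFAIP3 (1.67) and REL (1.44). The intervals of NFKBIA and RELA, of RELB and NFKBIE, and of TNFAIP3 and REL overlapped in this library. TRAF1 was last in Ctrl and stood above both TNFAIP3 and REL in the irradiated libraries, at 2.10 CPM per kb in RT against 1.58 and 1.33. Some places depended on the length used: per kilobase of all annotated exons NFKB1 stood at 3.36 CPM per kb in Ctrl, below BIRC3 at 3.91, and TRAF1, at 1.01, was close to REL (1.05) and TNFAIP3 (0.993) and not last.

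**Figure D1:**
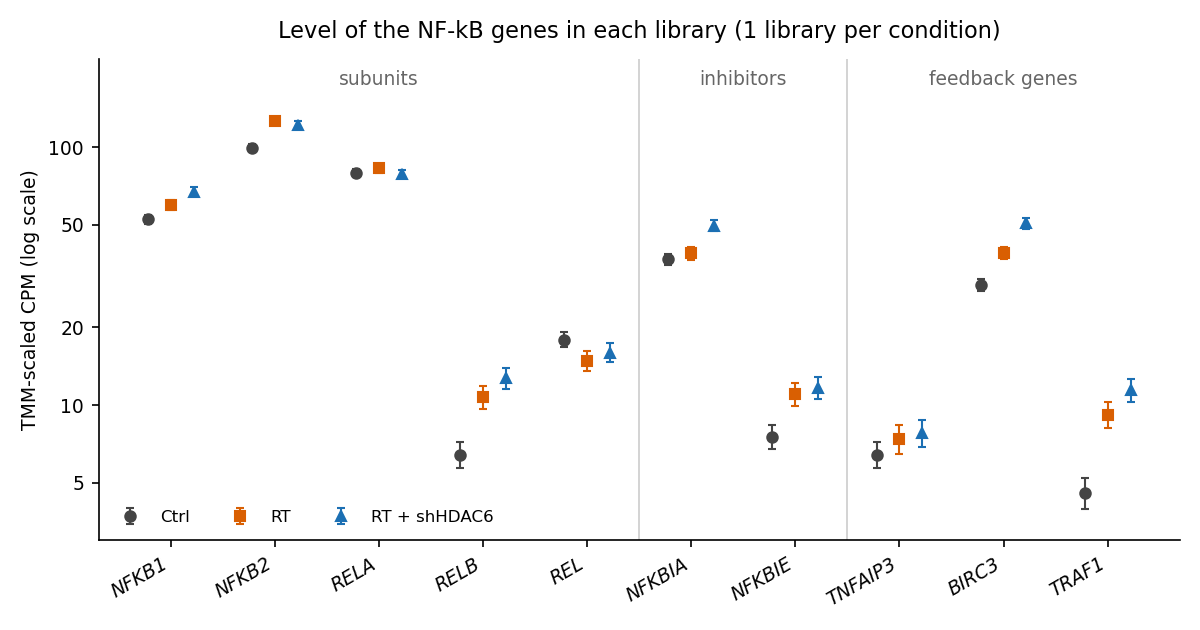
Level of each of the 10 NF-kB genes in the 3 libraries, as TMM-scaled CPM on a log axis, with the gene along the other axis, 1 point per library and bars for the 95% counting interval. TRAF1 climbs from 4.54 to 11.4 CPM and RELB from 6.39 to 12.7 CPM, whereas RELA stays between 78.6 and 82.9 CPM.

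The first comparison, RT against Ctrl, asks how the family stood after irradiation. TRAF1 and RELB were more than 1.5-fold higher in RT, 2 of the 10 genes, beside 14.5% of the 20267 genes that reached 10 counts in one of the libraries compared. None of the 10 was more than 1.5-fold lower, beside 20.5% of the genes. These counts rest on a rule of size and not on a test, and in bulk RNA fewer cells of a kind and less RNA per cell cannot be told apart. Here and below, the shares past 1.5-fold are over all genes with at least 10 counts, many with fewer counts than any of the 10. Ratios of such genes vary more by counting error, so these shares are not like for like with the 10 genes. The median log2 ratio of the 10 was 0.28, against -0.062 over all the genes tested and 0.073 over genes with a mean of at least 100 counts. Counting intervals lay above 0 for 6 of the 10, beside 29.7% of all genes tested and 45.3% of those with a mean of at least 100 counts. They lay below 0 for REL alone, beside 28.2% and 33%, and across 0 for RELA, NFKBIA and TNFAIP3. By a NOISeq-type probability over 0.4, a rule that sets each ratio and difference against simulated counting noise, 6 of the 10 were called higher, beside 23.6% of the genes. A gene with few counts reaches the needed difference in CPM less easily. The shares by this rule, here and below, are therefore also not like for like with the 10 genes. This comparison depended on the scaling: with library totals 8.3% of all genes were past 1.5-fold higher and 31.3% lower, the median of the 10 genes fell to 0.058, and TRAF1 alone remained past 1.5-fold.

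The second comparison, RT + shHDAC6 against RT, sets irradiated cells carrying the shRNA against HDAC6 beside irradiated cells without it. These libraries came from separately prepared cells, so the shRNA cannot be told apart from other differences between them. None of the 10 genes was past 1.5-fold in either direction, beside 10.1% of 19013 genes higher and 9.93% lower. Counting intervals lay above 0 for NFKB1, RELB, NFKBIA, BIRC3 and TRAF1, 5 of 10 beside 19.6% of all genes tested and 25.2% of those with a mean of at least 100 counts, and across 0 for the other 5. The NOISeq-type probability called 3 of the 10 higher, beside 9.86% of the genes. The median log2 ratio of the 10 was 0.14, against -0.0032 over the genes tested. In RT + shHDAC6 against Ctrl, RELB, NFKBIE, BIRC3 and TRAF1 were past 1.5-fold higher, 4 of 10 beside 13.9% of 20374 genes, and none was lower, beside 20.5%. The NOISeq-type probability called 7 higher, beside 23.2%. The median of the 10 was then 0.39, against -0.056 over the genes tested and 0.059 over genes with a mean of at least 100 counts. The 3 comparisons share libraries, so they are not independent of one another and are given side by side.

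**Figure D2:**
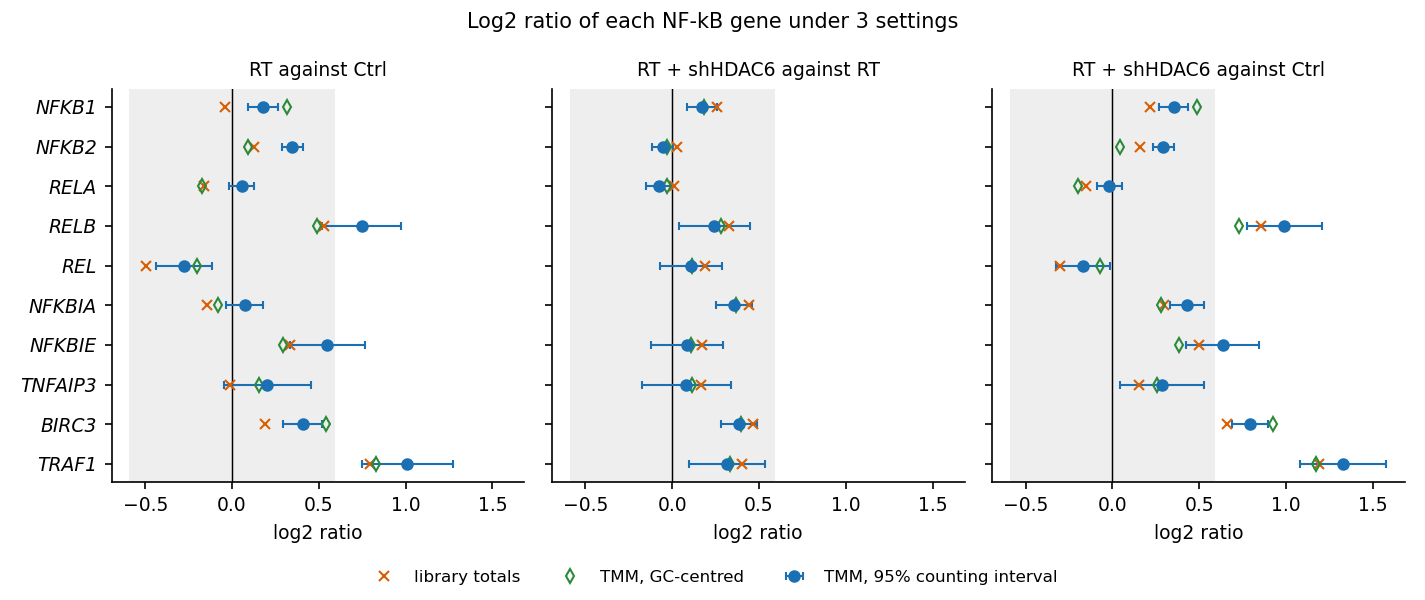
Log2 ratio of each NF-kB gene (rows) in the 3 comparisons (panels), after TMM scaling with its 95% counting interval (filled points), after scaling by library totals (crosses) and after centring by GC content (open diamonds); the grey band marks ratios within 1.5-fold. TRAF1 lies to the right of the band under all 3 settings in RT against Ctrl, and none of the 10 genes leaves the band in RT + shHDAC6 against RT.

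Of the subunits, RELA (chr11:65653599-65663090, minus strand), which carries the main transactivation domain of the canonical dimer, had 3611 counts in Ctrl, 2779 under RT and 2753 under RT + shHDAC6. Its level was 79.6, 82.9 and 78.6 CPM. The 3 libraries were nearly level for this gene: the log2 ratio was 0.057 (interval -0.015 to 0.13) in RT against Ctrl and -0.076 (interval -0.15 to 0.00090) in RT + shHDAC6 against RT. NFKB1 (chr4:102501330-102617302, plus strand), which encodes p105 and its product p50, had 2389, 2002 and 2356 counts, or 52.7, 59.7 and 67.3 CPM. It was lowest in Ctrl and highest in RT + shHDAC6 on this scale, at 0.18 (interval 0.094 to 0.27) above Ctrl in RT and 0.17 (interval 0.086 to 0.26) above RT in RT + shHDAC6 on the log2 scale. With library totals the log2 ratio of NFKB1 for RT against Ctrl was -0.037 and that of RELA -0.16, so neither had a settled direction in that comparison.

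NFKB2 (chr10:102394110-102402524, plus strand), the precursor of p52, had 4528 counts in Ctrl, 4259 under RT and 4283 under RT + shHDAC6. Its level was 99.8, 127 and 122 CPM, so both irradiated libraries lay above Ctrl. The log2 ratio was 0.35 (interval 0.29 to 0.41) in RT against Ctrl and -0.054 (interval -0.12 to 0.0075) in RT + shHDAC6 against RT. RELB (chr19:45001461-45038192, plus strand), the usual partner of p52, had 290, 360 and 445 counts, or 6.39, 10.7 and 12.7 CPM. RELB was thus lowest in Ctrl and highest in RT + shHDAC6, and its raw count was also higher in each of the irradiated libraries although these were sequenced less deeply. The log2 ratio was 0.75 (interval 0.52 to 0.98) for RT against Ctrl, 0.24 (interval 0.040 to 0.45) for RT + shHDAC6 against RT and 0.99 (interval 0.77 to 1.21) for RT + shHDAC6 against Ctrl. Its place past 1.5-fold in RT against Ctrl was lost with library totals (0.53), and the lower end of the interval lay within 1.5-fold.

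REL (chr2:60881491-60931612, plus strand), which encodes c-Rel, had 814 counts in Ctrl, 497 under RT and 559 under RT + shHDAC6, or 17.9, 14.8 and 16.0 CPM. It was the only one of the 10 genes whose interval lay below 0 in RT against Ctrl, with a log2 ratio at -0.28 (interval -0.44 to -0.11), and under the scalings tried the ratio stayed between -0.49 and -0.20. For RT + shHDAC6 against RT the ratio was 0.11 (interval -0.069 to 0.29). Of the annotated exon length of REL, 33.3% overlaps a different gene of the same strand, ENSG00000267520, which had 0 counts in all 3 libraries. How reads in shared exons were counted is not given in the sources used here, so the REL counts carry that uncertainty.

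Among the inhibitors, NFKBIA (chr14:35401079-35404749, minus strand), which encodes IkB-alpha and is a fast-responding NF-kB target, had 1671 counts in Ctrl, 1300 under RT and 1738 under RT + shHDAC6. Its level was 36.8, 38.8 and 49.6 CPM. Ctrl and RT were close together and RT + shHDAC6 stood above both: the log2 ratio was 0.073 (interval -0.033 to 0.18) in RT against Ctrl and 0.36 (interval 0.25 to 0.46) in RT + shHDAC6 against RT. NFKBIE (chr6:44258166-44265788, minus strand), which encodes IkB-epsilon, had 341, 369 and 409 counts, or 7.52, 11.0 and 11.7 CPM. For this inhibitor it was Ctrl that stood apart, with its log2 ratio at 0.55 (interval 0.33 to 0.77) in RT against Ctrl and 0.086 (interval -0.12 to 0.29) in RT + shHDAC6 against RT. NFKBIE passed 1.5-fold in RT + shHDAC6 against Ctrl, at 0.64 (interval 0.42 to 0.85), and not with library totals (0.50) or GC-centring (0.39).

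Among the feedback genes, TRAF1 (chr9:120902393-120929173, minus strand), an adaptor that binds TRAF2 and the cIAP proteins at TNF receptors, had 206 counts in Ctrl, 307 under RT and 399 under RT + shHDAC6. Its level was 4.54, 9.15 and 11.4 CPM, lowest in Ctrl and highest in RT + shHDAC6. The log2 ratio was 1.01 (interval 0.75 to 1.27), a fold of 2.01, for RT against Ctrl, and 4.67% of the genes tested had a higher one. For RT + shHDAC6 against RT it was 0.32 (interval 0.098 to 0.54), and for RT + shHDAC6 against Ctrl 1.33 (interval 1.08 to 1.58), a fold of 2.51. TRAF1 had the widest range of the 10 genes, and under library totals its ratios to Ctrl were 0.79 and 1.19, both past 1.5-fold.

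BIRC3 (chr11:102317484-102339403, plus strand), the ubiquitin ligase cIAP2, had 1328 counts in Ctrl, 1303 under RT and 1775 under RT + shHDAC6, or 29.3, 38.8 and 50.7 CPM. On this scale it was lowest in Ctrl and highest in RT + shHDAC6, whereas the raw counts of Ctrl and RT were almost equal. The log2 ratio was 0.41 (interval 0.30 to 0.52) for RT against Ctrl, 0.38 (interval 0.28 to 0.49) for RT + shHDAC6 against RT, the highest of the 10 genes though its interval was clear only of those of NFKB1, NFKB2 and RELA, and 0.79 (interval 0.69 to 0.90) for RT + shHDAC6 against Ctrl. Its neighbour BIRC2, the paralogous cIAP1 gene 7807 bases further along the chromosome, had 2517, 2934 and 3836 counts and log2 ratios of 0.66 in RT against Ctrl and 0.32 in RT + shHDAC6 against RT. How reads matching both paralogs were counted is not given in the sources used here. TNFAIP3 (chr6:137867214-137883314, plus strand), which encodes A20, had 290, 247 and 273 counts, or 6.39, 7.36 and 7.80 CPM. A20 differed little between libraries: its log2 ratio was 0.20 (interval -0.047 to 0.45) in RT against Ctrl and 0.082 (interval -0.17 to 0.34) in RT + shHDAC6 against RT, and at this depth no difference was detectable in either comparison. For RT + shHDAC6 against Ctrl the ratio of TNFAIP3 was 0.29 (interval 0.042 to 0.53).

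The balance within the family can be read without any scaling between libraries, as counts per 100 counts of RELA in the same library. TRAF1 had 5.70 counts per 100 of RELA in Ctrl (interval 4.93 to 6.57), 11.0 in RT (interval 9.79 to 12.4) and 14.5 in RT + shHDAC6 (interval 13.0 to 16.1). RELB had 8.03, 13.0 and 16.2 per 100 of RELA, and BIRC3 had 36.8, 46.9 and 64.5. For these 3 genes the intervals of the 3 libraries did not overlap, with the lowest value in Ctrl and the highest in RT + shHDAC6. NFKBIA stood at 46.3, 46.8 and 63.1 per 100 of RELA, the first 2 libraries together and RT + shHDAC6 apart. NFKB2 stood at 125, 153 and 156, with Ctrl apart. RELA itself made up 23.3% of the counts of the 10 genes in Ctrl, 20.7% under RT and 18.4% under RT + shHDAC6, and BIRC3 made up 8.59%, 9.71% and 11.8%. All of the other genes but REL had a higher value per 100 of RELA in both irradiated libraries than in Ctrl, though the intervals of Ctrl and RT overlapped for NFKB1, NFKBIA and TNFAIP3, and those of Ctrl and RT + shHDAC6 for TNFAIP3. That pattern follows from the choice of RELA as the reference. Only REL had a lower log2 ratio to Ctrl than RELA in either irradiated library, so it is no separate result.

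**Figure D3:**
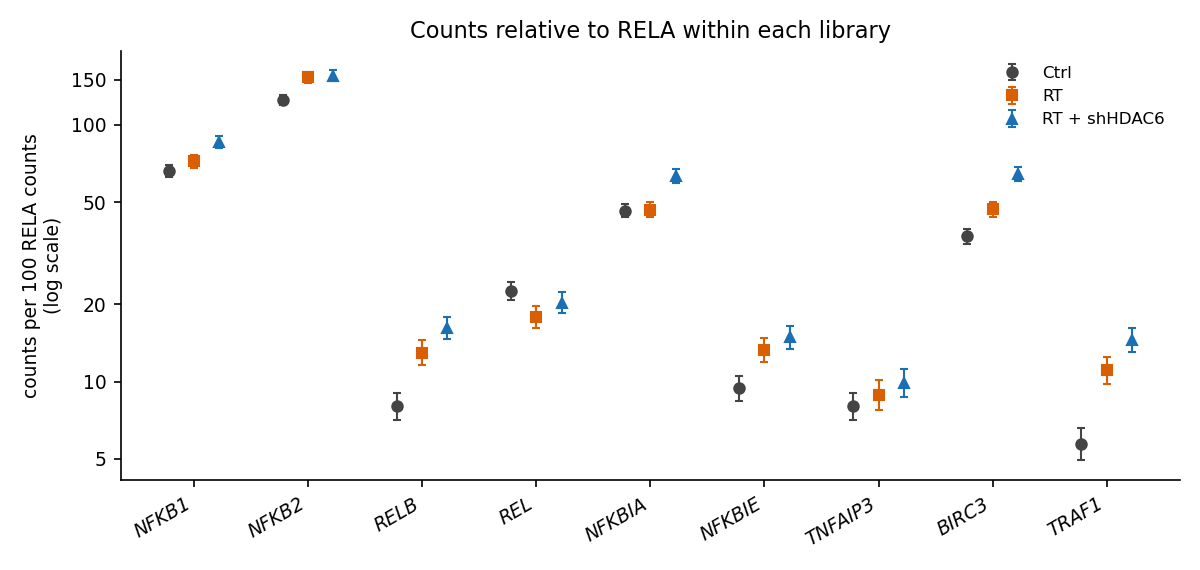
Counts of each of the other 9 NF-kB genes per 100 RELA counts in the same library, on a log axis, with bars for the 95% counting interval. TRAF1 runs from 5.70 in Ctrl to 14.5 in RT + shHDAC6, and REL is the one gene whose irradiated libraries, at 17.9 and 20.3, both lie below Ctrl at 22.5.

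The ratios of RT to Ctrl moved with the GC content of the transcripts. Over 12075 genes with a mean of at least 100 counts, Spearman's rho between GC content and log2 ratio was 0.21, across genes that share the same libraries and are not independent. The median log2 ratio was -0.10 in the tenth of genes with the lowest GC content and 0.25 in the tenth with the highest. For RT + shHDAC6 against RT the same rho was -0.0083. RELB (64.9% GC), NFKB2 (62.4%) and NFKBIE (61.0%) are GC-rich, and NFKB1 (36.0%) and BIRC3 (35.8%) are GC-poor. With the median of each GC bin subtracted, a setting chosen after the trend was seen, RELB stood at 0.49 and NFKB2 at 0.094 for RT against Ctrl, while BIRC3 stood at 0.54, NFKB1 at 0.32 and TRAF1 at 0.83. TRAF1 was then the one gene of the 10 past 1.5-fold in RT against Ctrl. Whether the GC trend arose in the cells or in the libraries cannot be told apart with 1 library per condition.

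TRAF1, the gene of widest range, was set beside all 12684 other genes that reached 100 counts in any library, by the Euclidean distance between their log2 ratios in the first 2 comparisons. The closest were ID1, a transcriptional inhibitor of basic helix-loop-helix factors (distance 0.0089, counts 3951, 5871 and 7589), LTB4R, a leukotriene B4 receptor (0.029, counts 777, 1179 and 1547), and the long non-coding RNA HK2-DT (0.043, counts 85, 123 and 159). A total of 14 genes lay within 0.1 of TRAF1, and with 3 libraries behind each pattern the likeness is a description only.

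Around the 10 genes, 112 symbols in 7 lists cover the rest of the pathway, of which 111 were matched. In RT against Ctrl 103 had enough counts, and 18 of them (17.5%) were past 1.5-fold higher and 16 (15.5%) lower, beside the 14.5% and 20.5% of all genes. In RT + shHDAC6 against RT 6 of 103 (5.83%) were higher and 7 (6.80%) lower, beside 10.1% and 9.93%. In RT + shHDAC6 against Ctrl 17 of 102 (16.7%) were higher and 14 (13.7%) lower, beside 13.9% and 20.5%. The same shares of all genes stand beside each list count below. With library totals those for RT against Ctrl were 8.3% higher and 31.3% lower. The signs of the list medians for RT against Ctrl in part depended on scaling: the medians of the receptor, kinase, DNA damage and intracellular target lists were above 0 with TMM and below 0 with library totals.

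Upstream, 5 of the 21 receptors and adaptors were past 1.5-fold higher in RT against Ctrl and 4 lower, beside 14.5% and 20.5% of all genes, with a median of 0.090. With library totals 2 were higher and 5 lower, beside 8.3% and 31.3%. TNFRSF12A, the receptor for TWEAK, had 2975 counts in Ctrl, 8938 under RT and 6918 under RT + shHDAC6, a log2 ratio of 2.02 for RT against Ctrl. LTBR, the lymphotoxin-beta receptor, had 9731, 17687 and 11844 counts, with log2 ratios of 1.30 in RT against Ctrl and -0.64 in RT + shHDAC6 against RT, the latter -0.56 and within 1.5-fold with library totals. Both receptors can feed the non-canonical branch, and for RT + shHDAC6 against RT the log2 ratio of TNFRSF12A was -0.43, beside -0.054 for NFKB2 and 0.24 for RELB. IL1R1, the interleukin-1 receptor, was lower in each step, with 552, 271 and 173 counts and log2 ratios of -0.59 and -0.71. Of the 13 IKK and upstream kinase genes, 0 were past 1.5-fold higher in RT against Ctrl and 1 was lower, TAB2, an adaptor of the kinase TAK1, at -0.72, and none was past it in RT + shHDAC6 against RT. MAP3K14, which encodes NIK, had 2600, 2592 and 2340 counts and log2 ratios of 0.43 and -0.21, and IKBKG, the regulatory subunit of IKK, stood at 0.48 for RT against Ctrl.

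Of the 16 other inhibitors and brakes, 15 had enough counts, with 1 past 1.5-fold higher and 2 lower in RT against Ctrl and 1 lower in RT + shHDAC6 against RT. With library totals these became 0 higher and 4 lower, and 1 higher and 0 lower. BCL3, an atypical nuclear IkB that works with p50 and p52, had 708 counts in Ctrl, 220 under RT and 151 under RT + shHDAC6, with log2 ratios of -1.25 and -0.61, the second -0.52 with library totals. NFKBIZ, another atypical IkB, went the other way, with 333, 361 and 544 counts and log2 ratios of 0.55 and 0.53, the second 0.61 and past 1.5-fold with library totals. BCL3 was thus highest in Ctrl and NFKBIZ highest in RT + shHDAC6. The NF-kB consensus motif was found in a window of 8 of the 16 brake genes, beside 13.3% of all symbols. Among genes with a window it was found in 12 of 19 secreted and adhesion targets, 10 of 18 intracellular targets, 4 of 11 coactivators and corepressors, 3 of 8 genes of the DNA damage arm, 2 of 18 receptors and adaptors and 1 of 11 kinases. Of the 10 genes of the DNA damage arm, through which breaks reach IKK, PIDD1 was past 1.5-fold higher in RT against Ctrl at 0.61 (0.39 with library totals), and none was past it in RT + shHDAC6 against RT. Of the 12 coactivators and corepressors, 0 were higher and 2 lower in RT against Ctrl, PPP1R13L, an inhibitor of RELA, at -0.66 and the coactivator NCOA3 at -0.62, and the list's median was -0.21.

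Downstream, 19 of 26 secreted and adhesion targets had enough counts, with 8 past 1.5-fold higher and 3 lower in RT against Ctrl, beside 14.5% and 20.5% of all genes. In RT + shHDAC6 against RT 5 were higher and 2 lower, beside 10.1% and 9.93%. With library totals the first of these became 6 higher and 6 lower, and the second kept its counts. The chemokine CXCL1 had 183 counts in Ctrl, 884 under RT and 741 under RT + shHDAC6, with log2 ratios of 2.71 and -0.32. The interval of the ratio for RT + shHDAC6 against RT, -0.46 to -0.17, lay below 0. CXCL2 had 60, 152 and 133 counts, with ratios of 1.78 and -0.25, the latter with an interval of -0.60 to 0.091. CSF3, the granulocyte colony-stimulating factor, had 19, 19 and 189 counts and a log2 ratio at 3.25 (interval 2.57 to 4.02) for RT + shHDAC6 against RT, and the pentraxin PTX3 had 219, 274 and 1043 and a ratio of 1.87. The 10 family genes stayed within 1.5-fold in RT + shHDAC6 against RT, and so did CXCL1 and CXCL2, while CSF3 and PTX3 were past it higher. The 2 secreted targets past 1.5-fold lower in RT + shHDAC6 against RT had at most 29 counts in either library, so the lower side rests on few counts. The higher side does so in part: IL1B had 17 and 64 counts, ICAM1 31 and 60, and CXCL8 73 and 154. In RT against Ctrl the higher genes include IL6, with 10 counts in Ctrl and 12 in RT (interval -0.64 to 2.07), and CCL20, with 13 and 37. The lower ones include ICAM1, with 76 and 31. Of the 20 intracellular and survival targets, 19 were matched and tested, with 3 higher and 4 lower in RT against Ctrl and 1 higher and 3 lower in RT + shHDAC6 against RT. With library totals these became 2 higher and 7 lower, and 3 higher and 2 lower. EBI3, 1 of the 3 higher in RT against Ctrl, had only 2 counts in Ctrl and 11 in RT. TAP1, the peptide transporter of antigen presentation, stood at 1.02 for RT against Ctrl, and IER3, a survival gene, had 3510, 1585 and 656 counts with log2 ratios of -0.71 and -1.33.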

How the data were processed

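Read counts of 58381 genes were analysed for 3 libraries, 1 per condition. Following the labels and the study's methods, cutadapt trimming, STAR alignment to GRCh38 and featureCounts assignment to genes of GENCODE release 28 were done by the authors; the counts were deposited as whole numbers, without normalisation. Strand setting and treatment of multi-mapping reads are not given in the sources used here, and the library kit differs between labels and methods. Of the identifiers, 57754 were matched to GENCODE release 44 for symbols and positions; SOD2 was not matched. No column was left unused.

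Counts were scaled by TMM (edgeR 4.0.16, R 4.3.3). Log2 ratios, with a count of 0 set to 0.5, were given with 95% Clopper-Pearson intervals of the counts (scipy 1.17.1), which bound counting error only. A gene was called past 1.5-fold, among genes with at least 10 counts in either library. A count of 0 allows up to 3 counts. The alternatives were library totals with and without mitochondrial genes, DESeq2 1.42.0 median of ratios, upper quartile scaling, GC-centring in 20 bins, a 2-fold rule, no minimum count, an interval wholly past 1.5-fold, and a re-implementation of the NOISeq procedure of the study with a probability over 0.4 (5 simulated samples of 20% of the depth). The scripts were tested on simulated data.

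Named genes were the 10 members, HDAC6, the 3 genes closest to the member of widest range, and, from each pathway list in each of RT against Ctrl and RT + shHDAC6 against RT, the 2 highest and 2 lowest genes with at least 100 counts; those printed were selected from them after their values were seen. Some genes that the rule covers are not reported here. The members and lists were chosen with earlier results of these data known. IKBKG, RIPK1, NFKBIZ, BCL3, ZC3H12A and TNIP1 are in more than 1 list. With 1 library per condition no test across genes was run.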

Additional observations from a re-analysis of the deposited data

How the results depend on the processing

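The count of genes past 1.5-fold higher in RT against Ctrl, 2 of 10, became 1 with library totals, with library totals without mitochondrial genes, with GC-centring (chosen after seeing the data), with a 2-fold rule and where the whole interval had to lie past 1.5-fold, 6 with the NOISeq-type probability and 3, with NFKBIE, with the median of ratios. In RT + shHDAC6 against RT the count of 0 became 3 with the NOISeq-type probability, and in RT + shHDAC6 against Ctrl the count of 4 became 1 with the 2-fold rule and 7 with that probability, and 3 with library totals, with these without mitochondrial genes, with GC-centring and where the whole interval had to lie past 1.5-fold. The stricter rules change the counts by their construction. The NOISeq-type probability is a different kind of rule: in RT + shHDAC6 against RT it called 9.86% of all genes higher, beside 10.1% past 1.5-fold higher. The cause of the scaling differences was not tested. The count of genes past 1.5-fold lower was 0 in every comparison and setting. Of 150 log2 ratios of the 10 genes under other scalings, 110 stayed within the counting interval of the TMM value and 40 moved beyond it. For the pathway lists, 210 counts of called genes were made under other scalings or the 2-fold rule. Of these, 141 stayed within 1.5 times the main TMM count and 69 did not. The 69 include counts lowered by the stricter 2-fold rule by its construction. Signs changed in RT against Ctrl for NFKB1, RELA, NFKBIA and TNFAIP3 with library totals, for the first 3 also without mitochondrial genes, and for RELA and NFKBIA with GC-centring. In RT + shHDAC6 against RT they changed for NFKB2 and RELA with library totals, and for NFKB2 without mitochondrial genes, and in RT + shHDAC6 against Ctrl for RELA with the median of ratios. No paired analysis was possible because there was 1 library per condition. Depth limits TRAF1, RELB, NFKBIE and TNFAIP3 most, at 206 to 445 counts.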

Other observations

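The epithelial keratin KRT7 had 3533 counts in Ctrl, 3854 under RT and 597 under RT + shHDAC6, while KRT18 had 7336, 8362 and 9048. The urothelial regulators GATA3 (2320, 1423 and 709 counts) and PPARG (1298, 650 and 352 counts) were lowest in RT + shHDAC6. These markers moved between the same libraries as the NF-kB genes, with summed levels of the 5 urothelial markers of 79.8, 61.9 and 30.4 CPM, and their part in the NF-kB values was not tested.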
